A study of Mus musculus with 6 samples.

Results

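Collagen chains are the alpha chains that wind in threes into the collagen triple helix, and each is the product of its own gene. They were chosen as the non-control array probes whose gene symbol is Col, a number, a, and a number. The scanner files carry transcript accessions and no gene symbols, so the pattern was applied to the current RefSeq symbol of each accession. This found 63 probes for 43 genes among 55681 probes, of which 27235 matched 20660 genes. RefSeq lists 44 such symbols, and Col12a1 was the one with no matching probe.

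RNA came from freshly sorted mammary cells of C57Bl6J female mice, with 3 biological replicates of each population and 1 one-color Agilent array per replicate. The fetal population was CD31-CD45-Ter119-EpCAM++CD49f+ cells of E18.5 glands, and the adult population was CD31-CD45-Ter119-BP-1-EpCAM+CD49f+ basal cells of mice 8 to 12 wk old. The labels give no treatment or genetic change for either population, and the comparison asked which transcripts differ between the fetal cells and their adult basal counterparts. Fetal glands were digested briefly and adult glands overnight, and only the adult cells were depleted of BP-1+ cells, so age, digestion and sort cannot be told apart. The gates removed CD31+ endothelial and CD45+ hematopoietic cells and, in the adult samples only, stromal cells that carry BP-1. Both gates also required EpCAM and CD49f, but at different EpCAM levels, EpCAM++ in the fetal and EpCAM+ in the adult gate. Values are quantile normalized log2 signals. A probe was called when its limma p, adjusted by Holm's method over all 20448 probes tested, was at most 0.05 and its difference was at least 1 log2 unit, which is a change of 2-fold.

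Fibrillar collagens (types I, II, III, V, XI and XXVII among them) build the banded fibrils of connective tissue, and the FACIT collagens (types IX, XII, XIV, XVI and others) sit on the surface of those fibrils. Type IV chains form the sheet-like network of basement membranes, type VI chains form beaded filaments beside them, and the transmembrane collagens cross the plasma membrane. In the mammary gland, basal epithelial cells rest on the basement membrane, and the stroma around it holds the interstitial fibrils.

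Col4a2, which was called, and its partner Col4a1 are arranged head to head, and their promoter windows overlap. The RefSeq promoter windows (build GRCm38.p6, 250 bases before to 50 after each annotated start) are shown because both chains read lower on every fetal array. That of Col4a1 is chr8:11312777-11313076 on the minus strand and that of Col4a2 is chr8:11312555-11312854 on the plus strand. The annotated starts lie 21 bases apart, and the first 22 bases of the 2 transcripts overlap. Capitals mark the 78 bases that the windows share, each written on its own strand.
Col4a1: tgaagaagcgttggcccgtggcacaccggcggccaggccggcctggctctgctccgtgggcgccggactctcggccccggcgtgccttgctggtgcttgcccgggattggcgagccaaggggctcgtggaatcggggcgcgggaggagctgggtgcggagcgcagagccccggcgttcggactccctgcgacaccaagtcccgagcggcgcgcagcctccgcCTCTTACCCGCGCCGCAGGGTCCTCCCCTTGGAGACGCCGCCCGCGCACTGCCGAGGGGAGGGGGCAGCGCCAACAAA
Col4a2: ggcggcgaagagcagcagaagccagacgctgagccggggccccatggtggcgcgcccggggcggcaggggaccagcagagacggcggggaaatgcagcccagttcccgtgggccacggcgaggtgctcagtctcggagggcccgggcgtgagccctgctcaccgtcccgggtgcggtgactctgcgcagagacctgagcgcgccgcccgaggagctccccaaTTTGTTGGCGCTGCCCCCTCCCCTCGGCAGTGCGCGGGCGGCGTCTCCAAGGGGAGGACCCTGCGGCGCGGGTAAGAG
The window of Col17a1, the chain of the hemidesmosome and a member called higher in adult basal cells, is chr19:47691993-47692292 on the minus strand. Capitals mark TATAAA, found at 2 places, and CTTTGT, the reverse complement of ACAAAG, found once.
Col17a1: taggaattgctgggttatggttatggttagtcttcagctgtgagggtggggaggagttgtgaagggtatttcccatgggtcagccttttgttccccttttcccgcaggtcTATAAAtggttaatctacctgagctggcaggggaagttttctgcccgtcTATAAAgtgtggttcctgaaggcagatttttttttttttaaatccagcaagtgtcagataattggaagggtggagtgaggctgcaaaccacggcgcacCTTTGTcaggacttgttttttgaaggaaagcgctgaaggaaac
Windows were found for 35 of the 43 genes, 38 in all because 3 genes have 2 starts. The letters TATAAA, read on both strands, were in 13.2% of collagen windows and in 13.6% of all 32817 windows. The GC box GGGCGG was in 60.5% of collagen windows and 35.6% of all, and it lies within the bases that Col4a1 and Col4a2 share. ACAAAG was in 13.2% against 18.7%, and AACAAT in 2.63% against 10.7%. The 3 matches in the Col17a1 window do not overlap one another, and a match is a description of letters only.

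Signal was well above background on all 6 arrays for 45 of the 63 probes and on no array for 7. The low-signal filter, which removes a probe that is dim in both populations, kept 44 probes for 33 genes. Of these 44 probes, 34 passed in both populations, 5 only through the fetal arrays and 5 only through the adult basal arrays, so the counts below are not counts over all members. The 10 genes without a tested probe were Col10a1, Col11a2, Col13a1, Col19a1, Col22a1, Col24a1, Col28a1, Col4a3, Col6a5 and Col8a1. On the 19 probes that were not tested, the highest log2 value on any array was 6.02 and the fetal minus adult difference ran from -0.89 to 2.11.

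A call was made for 10 collagen probes: 7 were brighter in fetal and 3 in adult basal cells. That is 22.7% of the 44, where 11.1% of all tested probes were called (5.92% higher in fetal and 5.18% higher in adult basal cells). By 1 probe for each gene, the brightest that passed, 8 of 33 genes were called (24.2%, against 11.2% of 15734 genes), 5 higher in fetal (6.03% of all genes) and 3 higher in adult basal cells (5.21%). The median absolute difference was 1.2 log2 units over these 33 genes and 0.53 over all genes tested, and the median signed difference was -0.26 against -0.04. Of the 10 called probes, 4 had passed the filter through 1 population only. RNA was extracted from whole populations, so fewer cells that hold a transcript and less of it in each cell cannot be told apart.

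**Figure D1:**
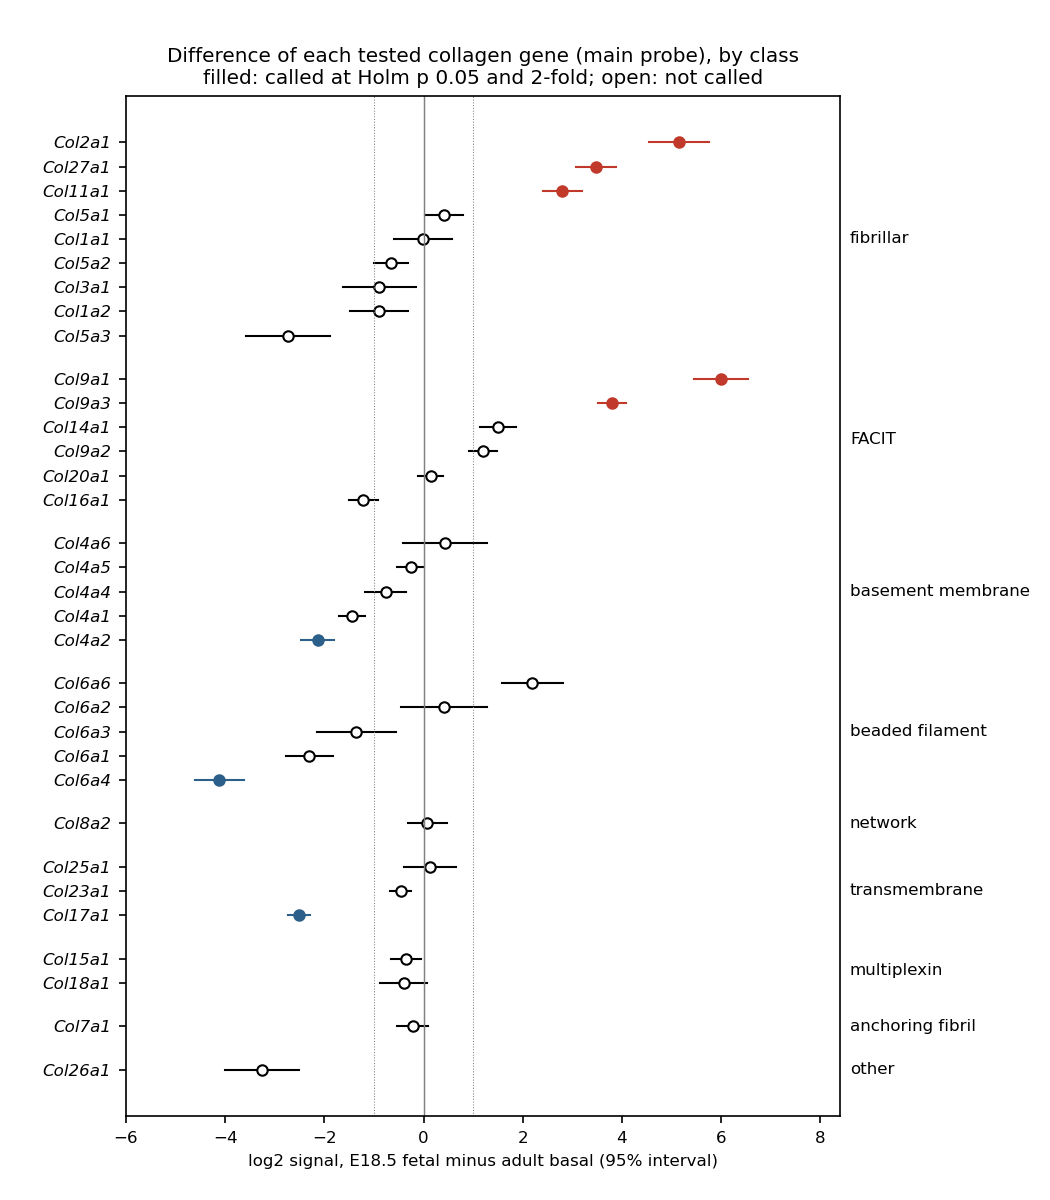
Differences in log2 signal (x axis, E18.5 fetal minus adult basal, with 95% intervals) of the 33 collagen genes tested, 1 probe each, grouped by class; filled points were called. The 5 called points right of 0 are Col2a1, Col27a1, Col11a1, Col9a1 and Col9a3, and the 3 called points left of 0 are Col4a2, Col6a4 and Col17a1.

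Collagens II, IX and XI, which assemble together in the fibrils of cartilage, gave 4 of the 7 probes called higher in fetal cells (Col9a1, Col2a1, Col9a3 and Col11a1). Of all tested probes, 5.92% were called in that direction. A second Col9a1 probe (-0.08) and Col9a2 (1.2) were tested and not called, and Col11a2 was not tested. The fibrillar class had 11 genes, of which 9 were tested and 3 were called (33.3%, against 11.2% of all genes). All 3 were higher in fetal cells, as were 6.03% of all genes. Col2a1, the chain of type II collagen, read 11.53, 11.48 and 11.65 in fetal replicates 1, 2 and 3 and 6.11, 7.04 and 6.06 in adult basal replicates 1, 2 and 3. Every fetal array was thus above every adult array, and adult basal replicate 2 was the highest of the adult arrays. The difference was 5.15 ± 0.26 (SE, n = 3 and 3), or 35.5-fold, with an adjusted p of 0.0029 (limma, Holm).

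Col11a1, a chain of the minor fibrillar type XI, read 9.02, 8.85 and 8.61 in fetal and 6.32, 5.79 and 5.97 in adult basal cells. Its difference of 2.80 ± 0.17 (6.98-fold, adjusted p = 0.011, limma) separated the groups. Col27a1, a fibrillar chain known from developing cartilage, read 8.42, 8.43 and 8.33 in fetal and 5.17, 4.53 and 5.04 in adult basal cells. The groups were again apart, by 3.48 ± 0.17 (11.1-fold, adjusted p = 0.0028, limma), and this probe passed the filter through its fetal signal only. Without fetal replicate 1 none of these 3 fibrillar calls held (2.70 to 5.49 on the log2 scale over all arrays left out in turn). Col27a1 was also lost without fetal replicate 2, and Col11a1 without any single fetal array, without adult basal replicate 3 or with no low-signal filter. With normexp background correction the 3 differences were smaller and still called, at 4.36 for Col2a1, 2.10 for Col27a1 and 1.92 for Col11a1.

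Type IX collagen, a FACIT heterotrimer that coats type II fibrils, has 3 chains, and the main probe of each was brighter in fetal cells. Of the 8 FACIT genes, 6 were tested and 2 were called (33.3%, against 11.2% of all genes). Both were higher in fetal cells, as were 6.03% of all genes. Col9a1 read 12.87, 12.94 and 12.65 in fetal and 6.73, 7.34 and 6.40 in adult basal cells, with adult basal replicate 2 again the highest adult array. This was the largest difference of any collagen probe, 5.99 ± 0.23 (63.8-fold, adjusted p = 0.0005, limma). Col9a3 read 10.84, 10.67 and 10.95 in fetal and 7.16, 7.0 and 6.91 in adult basal cells. The difference of 3.80 ± 0.12 (13.9-fold, adjusted p = 0.00012, limma) had the smallest p among the collagens. Both calls held under each of the 17 alternative settings run for them, with Col9a1 at 5.24 under normexp correction.

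Col9a2 was brighter in fetal cells by 1.2 ± 0.12 without overlap, but its adjusted p was 0.35 and it was not called. Col14a1, whose product binds the surface of type I fibrils, stood at 1.5 ± 0.15 (adjusted p = 0.36), and Col16a1 at -1.21 ± 0.13 (adjusted p = 0.38), so that neither passed the Holm test. All 3 passed with Benjamini-Hochberg adjustment, under which 22 of the 44 collagen probes were called, 50% against 30% of all probes tested, 11 of them higher in fetal (16% of all) and 11 higher in adult basal cells (14%). By gene, 17 were called in this way against 29.7% of all genes, 8 higher in fetal (15.8%) and 9 higher in adult basal cells (13.9%). The arrays of the populations did not overlap for 32 collagen probes (72.7%, against 69.1% of all tested probes) and 24 genes (against 68.4%), shares near the background.

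**Figure D2:**
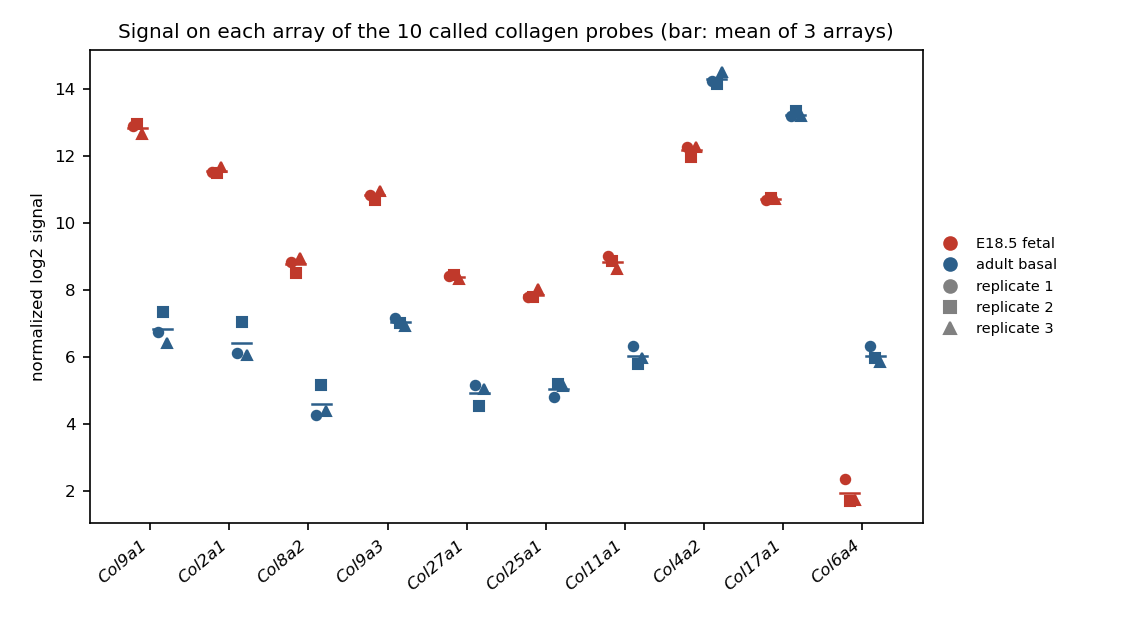
Normalized log2 signal (y axis) of the 10 called collagen probes on each array, fetal in red and adult basal in blue, with a bar at the mean of 3 arrays and a symbol for each replicate. No fetal point overlaps an adult point within a gene, and adult basal replicate 2 is the highest adult point for 5 of the 10 probes (Col9a1, Col2a1, Col8a2, Col25a1 and Col17a1).

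Genes known for cartilage differed in part with these chains. In a list of 10 cartilage genes, 5 were tested and 2 were called, both higher in fetal cells, as were 6.03% of all genes. Cnmd (chondromodulin) was at least 181-fold higher, with no adult array well above background, and passed the filter through its fetal signal only. Snorc, a chondrocyte transmembrane proteoglycan, was higher by 6.51 ± 0.19 (adjusted p = 7.2e-05, limma). The bound for Cnmd, and those given below, set the mean of the brighter group against the lowest signal well above background on each dimmer array, or the probe's own where that was higher. Summed over the list, signal was 27500, 31086 and 25453 in fetal and 5781, 7550 and 7175 in adult basal replicates 1, 2 and 3. The brightest probe on the fetal arrays was that of Snorc, which made 57.6% to 62.5% of the fetal sums. On the adult arrays and by the mean log2 level of all 6 it was that of Sox9, a transcription factor that mammary epithelium also expresses, with a difference of 0.57 ± 0.17 (adjusted p = 1, limma). Hapln1, Matn3 and Epyc stood well above background on none of the 6 arrays, and Matn1 on 1 fetal array. Acan, the core protein of aggrecan, was well above background on all 6 arrays at 10.80, 10.76 and 10.92 in fetal and 10.83, 11.09 and 10.81 in adult basal cells, and the groups overlapped. Snorc, like Col2a1 and Col9a1, was highest among the adult arrays in replicate 2 (7.60, 7.84 and 7.15). So were 4 of the 5 tested cartilage genes, and Sox9 was highest in replicate 3. The called chains Col9a3, Col11a1 and Col27a1 were instead highest among the adult arrays in replicate 1. Within slide 1 the log2 ratio of the summed list was 2.09 and within slide 2 it was 1.90. Epyc also stands in the list of fibril-associated proteins below.

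The interstitial fibril chains of types I, III and V were not called. Col1a1 differed by -0.01 ± 0.25 (95% interval -0.59 to 0.57), reading 9.97, 10.22 and 10.25 in fetal and 9.77, 9.97 and 10.74 in adult basal cells. Its partner Col1a2 read 11.35, 11.24 and 11.69 in fetal and 12.05, 12.03 and 12.89 in adult basal cells, a difference of -0.90 ± 0.25. Col3a1, the single chain of type III, stood at -0.89 ± 0.31, with 9.19, 9.62 and 10.01 against 10.15, 10.21 and 11.14. In each of the 3 genes adult basal replicate 3 was the highest of all arrays. The same replicate was the highest adult array for 5 of the 9 tested fibrillar genes.

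Col5a3, a chain of the type V regulators of fibril assembly, had the lowest value of the class at -2.74 ± 0.36. It read 5.0, 5.36 and 5.98 in fetal and 7.81, 7.81 and 8.92 in adult basal cells, and the spread within the groups left it at an adjusted p of 1 (limma, Holm); with normexp correction it was -1.72. Col5a3 was called with Benjamini-Hochberg adjustment and with replicate as a block. Col5a1 stood at 0.42 and Col5a2 at -0.66, and neither was called.

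The fibroblast markers that were called were brighter in adult basal cells. Of 15 such genes outside the collagens, 12 were tested and 3 were called, all higher in adult basal cells, as were 5.21% of all genes. They were Prrx1 (a mesenchymal homeobox factor, at least 74.8-fold, no fetal array well above background), Ly6c1 (-3.06 ± 0.21) and Pi16 (-2.98 ± 0.19). Prrx1 and Pi16 passed the filter through their adult signal only. The summed signal was 17290, 15231 and 17254 in adult basal and 5692, 5723 and 6208 in fetal cells, with Ly6c1 the brightest on the adult and Fbln1 on the fetal arrays and a median difference of -1.29 over the list. With Benjamini-Hochberg adjustment 7 were called, where 29.7% of all genes were. Of these, 6 were higher in adult basal cells (13.9% of all genes) and 1, Fbln1 (1.03, adjusted p = 0.0013), was higher in fetal cells (15.8%). Within slides the log2 ratio of the sums was -1.60 and -1.35. The list as a whole was not highest in adult basal replicate 3, the high array for the type I and III chains: of its 12 tested genes, 3 had their highest adult value in replicate 1, 5 in replicate 2 and 4 in replicate 3. Replicate 3 held the highest adult value for 5 of 7 fibril-associated, 4 of 6 endothelial and 4 of 7 leukocyte genes tested. The same held for 5 of 10 basal mammary, 4 of 8 adipocyte, 3 of 6 Schwann cell and 3 of 10 luminal genes. It held for 2 of 7 pericyte, 1 of 5 cartilage and 0 of 4 skeletal muscle genes. Adult basal replicate 3 was the highest array for Fap (5.97, 6.33 and 7.13 in adult basal replicates 1, 2 and 3), Mfap5 (8.84, 9.23 and 9.79) and the macrophage gene Tyrobp (7.82, 7.16 and 9.64), which were named after their values were seen. Other fibroblast markers peaked elsewhere among the adult arrays: Thy1 (11.78) and Prrx1 (10.48) in replicate 2, and Pdgfra (9.33) and Ly6c1 (13.40) in replicate 1. The part of other cells in these collagen values was not tested.

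Type IV collagen, the core of the basement membrane, gave a call for 1 chain of its ubiquitous pair. Of 6 genes in the class 5 were tested and 1 was called (20%, against 11.2% of all genes). It was lower in fetal cells, as were 5.21% of all genes. Col4a2 read 12.27, 11.96 and 12.25 in fetal and 14.24, 14.13 and 14.50 in adult basal cells. The groups were apart by -2.13 ± 0.14 (4.39-fold lower in fetal cells, adjusted p = 0.02, limma). The call was lost without any one of 5 arrays (adult basal replicate 2 excepted). It was also lost with replicate as a block, with slide as a block (-2.07, adjusted p = 0.067, limma), with no low-signal filter and with all probes. Every array left out in turn still gave a value between -2.21 and -2.03.

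Col4a1, the partner chain, whose promoter window shares the bases printed above, read 12.79, 12.60 and 12.79 in fetal and 14.11, 14.11 and 14.29 in adult basal cells. It lay just outside the threshold at -1.44 ± 0.11 (2.72-fold lower, adjusted p = 0.052, limma) and was called under 5 of 17 alternatives. The interval of Col4a1 was -1.70 to -1.18 and that of Col4a2 -2.47 to -1.80; the difference between the 2 genes was not tested.

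The other head-to-head pair, Col4a5 and Col4a6 on the X chromosome, whose RefSeq starts lie 1343 bases apart, was not called. Col4a5 differed by -0.26 ± 0.12. For Col4a6 the 2 probes disagreed in sign: one gave 0.43 ± 0.36, with adult basal replicate 2 at 11.92 and the other 5 arrays between 13.09 and 13.38, and the other gave -1.48 ± 0.14 without overlap (adjusted p = 0.18). Col4a4 stood at -0.76 ± 0.18, and Col4a3 was not tested. The multiplexins Col15a1 and Col18a1, proteoglycan collagens of basement membrane zones, stood at -0.35 and -0.40, and Col7a1, the anchoring fibril chain, at -0.22 with a 95% interval of -0.53 to 0.10.

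Type VI chains, which link basement membranes to the stroma, gave 1 call. Of 6 genes 5 were tested and 1 was called (20%, against 11.2% of all genes). The called one was higher in adult basal cells, as were 5.21% of all genes. Col6a4 read 6.31, 5.95 and 5.85 in adult basal cells, but on the fetal arrays (2.34, 1.68 and 1.74) no signal stood well above background. This makes it at least 4.80-fold higher in adult basal cells (fitted difference -4.11, adjusted p = 0.0032, limma). The call of Col6a4 was lost without fetal replicate 3, the probe did not pass the filter without adult basal replicate 1 or with normexp correction, its second probe was too dim to test, the first passed only through its adult signal, and with an offset of 16 its fitted difference was -2.04.

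Col6a1 read 8.63, 8.67 and 8.94 in fetal and 11.28, 11.28 and 10.61 in adult basal cells. The groups were apart by -2.31 ± 0.20, with an adjusted p of 0.13, and without adult basal replicate 3 it was called (-2.53, adjusted p = 0.021, limma). Col6a3 stood at -1.36 ± 0.34, with adult basal replicate 3 at 9.92 against 8.70 and 8.72 in the other 2 adult arrays. Col6a2 stood at 0.41 ± 0.37, with adult basal replicate 2 the lowest array at 7.5. Col6a6 was brighter in fetal cells by 2.19 ± 0.26 (adjusted p = 0.92), and its signal was well above background on 1 adult array only.

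Col17a1, the transmembrane collagen of hemidesmosomes, had the smallest error of the 3 members called higher in adult basal cells. Its signal was 10.68, 10.75 and 10.70 in fetal and 13.19, 13.32 and 13.17 in adult basal cells, and the groups were far apart relative to their spread. The difference was -2.51 ± 0.10 (5.71-fold lower in fetal cells, adjusted p = 0.00045, limma), with -2.49 within slide 1 and -2.59 within slide 2, and the call held under all 17 alternatives. Of the other transmembrane chains, Col23a1 stood at -0.46 ± 0.09 and was not called, Col13a1 was not tested, and Col25a1 is described with the probes below.

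Partners of Col17a1 in the hemidesmosome, the junction that ties basal cells to the basement membrane, were lower in fetal cells or showed no call. Of 8 genes, all tested, 3 were called (37.5%), each lower in fetal cells, where 5.21% of all genes were called in that direction: Lamb3 by -5.51 ± 0.16, Lama3 by -3.85 ± 0.15, both laminin chains of the junction, and Dst, a plakin linker to keratin filaments, by -3.78 ± 0.16. The integrin chains of the junction were not called. Itgb4 read 12.88, 12.90 and 12.72 in fetal and 13.96, 14.49 and 13.92 in adult basal cells (-1.28 ± 0.17, adjusted p = 1, limma), and Itga6, which is the sort antigen CD49f, differed by 0.01 ± 0.13.

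Col26a1, a collagen in none of the main classes, read 7.44, 7.21 and 7.84 in fetal and 10.75, 11.40 and 10.12 in adult basal cells. The groups were apart by -3.26 ± 0.32 (9.58-fold), but the spread among the adult arrays left the adjusted p at 0.26 (limma, Holm). With normexp correction it was called (-2.76, adjusted p = 0.044, limma).

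Several calls depended on the probe. Of 14 genes with several probes, 9 had at least 2 tested, and the differences of those probes lay within 1 log2 unit of each other for 5 genes. They differed in call for 3, Col9a1, Col8a2 and Col25a1, and in sign for Col9a1 and Col4a6. Col9a1's second probe, assigned to the same transcript accession as the called one, gave -0.08 ± 0.12 with overlapping groups. RefSeq lists a pair of Col9a1 starts 17593 bases apart, and which transcripts each probe reads was not tested.

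Col8a2, a chain of the network-forming type VIII, had 2 probes on 1 accession. The called one read 8.82, 8.50 and 8.96 in fetal and 4.26, 5.16 and 4.37 in adult basal cells (4.17 ± 0.25, 18.0-fold, adjusted p = 0.01, limma). It passed the filter through its fetal signal only. The brighter probe, which stands for the gene in the counts by class, gave 0.08 ± 0.17 with overlapping groups. The call was lost with no low-signal filter, with replicate as a block and without any one of 5 arrays (adult basal replicate 2 excepted). With each array left out in turn the values ran from 3.99 to 4.48. With normexp correction the difference was 2.54 and with an offset of 16 it was 3.47, and both kept the call. The network class had 3 genes, and Col8a2 alone was tested.

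Col25a1, a brain-enriched transmembrane collagen, had 3 tested probes. The called probe read 7.78, 7.77 and 8.02 in fetal and 4.81, 5.18 and 5.13 in adult basal cells (2.82 ± 0.14, 7.05-fold, adjusted p = 0.0026, limma), and it too passed the filter through its fetal signal only. The call was lost without fetal replicate 1, and with normexp correction the probe did not pass the filter. A second gave 1.97 ± 0.15 (adjusted p = 0.063). The brightest gave 0.12 ± 0.22 with overlap, although it shares its accession with the called probe.

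**Figure D3:**
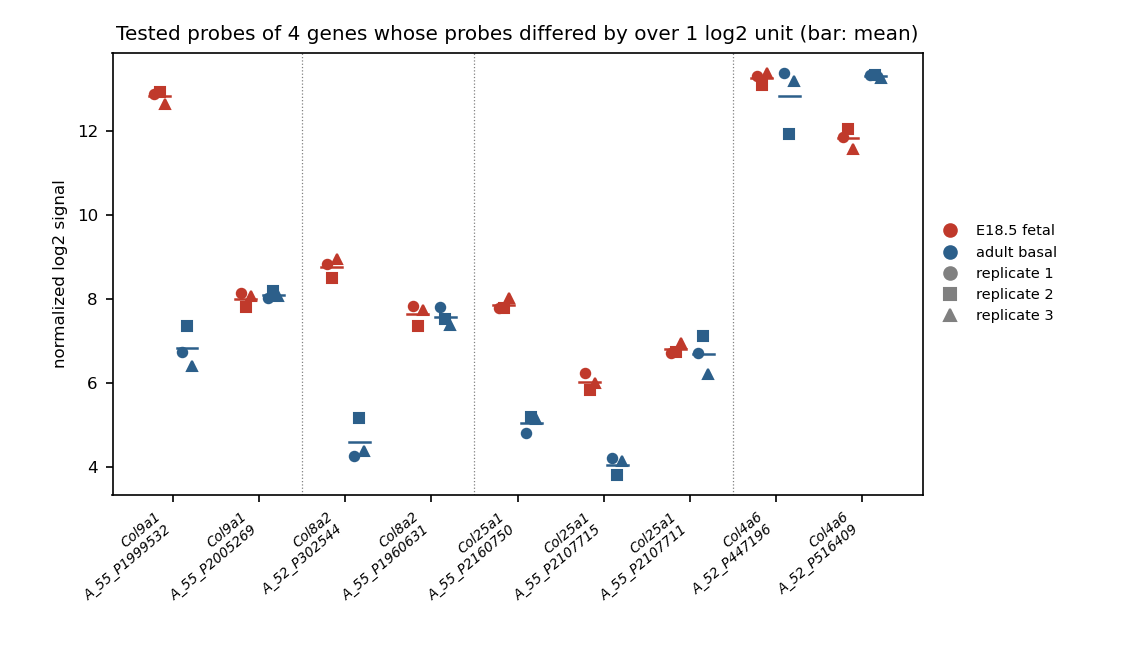
Normalized log2 signal (y axis) on each array of every tested probe of Col9a1, Col8a2, Col25a1 and Col4a6 (x axis, probe names), fetal in red and adult basal in blue, with a bar at the mean. For the first 3 genes 1 probe separates the populations by 2.82 or more log2 units and another probe of the same gene overlaps; levels are not comparable between probes.

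Enzymes that modify collagen in the endoplasmic reticulum were lower in fetal cells where they were called. Of 21 synthesis enzymes and chaperones, all tested, 3 were called (14.3%, against 11.2% of all genes), each lower in fetal cells, and the median difference was -0.83 against -0.04. These were 3 of the 4 listed subunits of prolyl 4-hydroxylase, which hydroxylates proline in the helix: P4ha2 by -5.53 ± 0.12, P4ha1 by -3.53 ± 0.22 and P4hb by -2.52 ± 0.13. The remaining subunit, P4ha3, stood at -0.30 ± 0.10 and was not called. Serpinh1, the collagen chaperone HSP47 and the brightest probe of the list, read 14.25, 14.39 and 14.35 in fetal and 15.76, 16.21 and 15.97 in adult basal cells. It was not called at -1.65 ± 0.13 (adjusted p = 0.078, limma).

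Processing and crosslinking genes moved in both directions, with 5 of 14 tested genes called (35.7%, against 11.2% of all genes). Higher in fetal cells were Adamts14 (3.74 ± 0.15) and Adamts3 (2.19 ± 0.11), proteinases that remove the amino propeptide of procollagens, and Pcolce2 (2.09 ± 0.11), an enhancer of carboxy propeptide removal. Adamts3 passed the filter through its fetal signal only. Lower in fetal cells were Adamts2, a further amino propeptidase (-1.96 ± 0.11), and Sparc, a collagen-binding matricellular protein (-2.06 ± 0.13). The 3 propeptidases therefore did not move one way: Adamts2 read 8.75, 8.76 and 8.47 in fetal and 10.58, 10.65 and 10.63 in adult basal cells.

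Collagen receptors divided likewise, with 2 of 8 tested genes called (25.0%, against 11.2% of all genes). The largest value was that of Ddr2, a receptor tyrosine kinase for fibrillar collagens, which read 4.78, 5.02 and 5.0 in fetal and 11.10, 11.70 and 11.51 in adult basal cells (-6.50 ± 0.17, adjusted p = 2.8e-05, limma). Ddr2 passed the filter through its adult signal only. Its epithelial relative Ddr1 read 11.99, 11.99 and 11.73 against 11.48, 11.62 and 11.75, a difference of 0.29 ± 0.12 with overlap. Itga11, an integrin chain for fibrillar collagen, was higher in fetal cells by 2.04 ± 0.13 (adjusted p = 0.019, limma). Itga1 stood at -2.82 ± 0.23 (adjusted p = 0.08), Itga2 at 0.02 ± 0.23, and Itgb1, the brightest by the mean log2 level of all 6 arrays, at -0.96 ± 0.15. The paper names Itga1 among the genes it found higher in adult basal cells, and 1 probe stands for each receptor here.

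Proteins that bind the finished fibril were lower in fetal cells wherever they were called. Of 7 tested, 2 were called (28.6%, where 5.21% of all genes were called lower in fetal cells): Postn, periostin, read 8.01, 8.39 and 8.25 in fetal and 15.66, 16.64 and 16.54 in adult basal cells (-8.06 ± 0.26, adjusted p = 0.00014, limma), and Dcn, decorin, stood at -3.78 ± 0.18 (adjusted p = 0.0023, limma). Basement membrane partners gave 3 calls among 11 tested genes (27.3%, against 11.2% of all genes). Fras1, of the Fraser complex under embryonic epithelia, was higher in fetal cells by 5.26 ± 0.13 and the integrin ligand Npnt by 1.75 ± 0.13, whereas Hspg2, perlecan, was lower by -1.62 ± 0.10. Fras1 and Npnt passed the filter through their fetal signal only. Agrn, the brightest, stood at 0.13 ± 0.10.

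**Figure D4:**
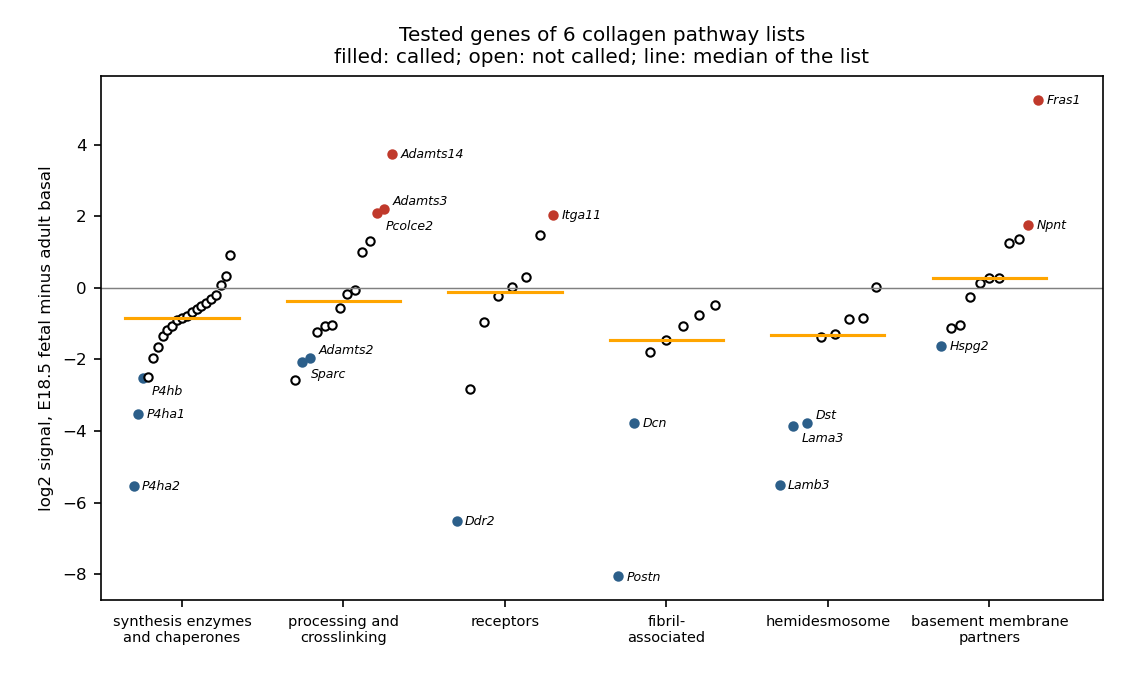
Differences in log2 signal (y axis, E18.5 fetal minus adult basal) of the tested genes in 6 lists of collagen pathway genes, with called genes filled and named and the median of each list as a line. Called points of the synthesis, fibril-associated and hemidesmosome lists lie below 0, and those of the other 3 lists lie on both sides.

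The sorted populations were checked against markers of mammary and other cells. Of 10 basal mammary genes, all tested, 8 were called and all 8 were lower in fetal cells, as were 5.21% of all genes (Krt5, Krt17, Acta2, Myh11, Cnn1, Oxtr, Mylk and Tagln), with Acta2 the brightest at -4.07 ± 0.16. The other 2 overlapped between the populations, Trp63 at -0.08 ± 0.10 and Krt14 at -1.2 ± 0.51, with adult basal replicate 2 at 13.39 against 15.25 and 15.46 in the other adult arrays. Among the called genes, Myh11 passed the filter through its adult signal only. Summed basal signal was 1228840, 1191010 and 1193170 in adult basal and 94883, 86387 and 76456 in fetal cells. Of 10 luminal genes, all tested, 3 were called, Elf5, Foxa1 and Kit, all higher in fetal cells, as were 6.03% of all genes. Elf5 passed the filter through its fetal signal only. With Benjamini-Hochberg adjustment Esr1 (-3.58 ± 0.35, well above background on 1 of 3 fetal arrays) and Krt19 (-1.22 ± 0.16) were also called. Both were lower in fetal cells, as were 13.9% of all genes with that adjustment. Esr1 passed the filter through its adult signal only. The brightest, Krt18, stood at 0.58 ± 0.13.

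The other lists are of cells outside the epithelium. Pericyte genes gave 2 calls of 7 (28.6%, against 11.2% of all genes) in opposite directions (Pdgfrb -4.34 ± 0.17, Notch3 4.70 ± 0.17). Pdgfrb passed the filter through its adult signal only. Mcam was the brightest of the list, whose sum was 52362, 49166 and 49043 in fetal and 81533, 88044 and 84630 in adult basal cells. Mcam alone (-0.98 ± 0.09, not called) made 82.3% to 83.1% of the fetal pericyte sums. Endothelial genes (6 tested, Kdr the brightest) and leukocyte genes (7 tested, Csf1r the brightest) gave no call by limma with Holm adjustment. With Benjamini-Hochberg adjustment 4 and 2 were called, all higher in adult basal cells, as were 13.9% of all genes (4 and 3 had an unadjusted p under 0.05). Of these called genes, Cdh5, Emcn, Esam, Lyz2 and Tyrobp passed the filter through their adult signal only. The median difference was -1.59 over the endothelial and -0.31 over the leukocyte genes. Their sums overlapped between the populations, at 10855 to 12647 in fetal and 11552 to 13980 in adult basal cells for endothelium, and 15693 to 19978 against 18756 to 22940 for leukocytes. Kdr, which differed by -0.04 ± 0.13, made 93.5% to 94.6% of the fetal endothelial sums. Csf1r made 50.7% to 54.4% of the fetal leukocyte sums. Adipocyte genes (8 tested) gave no limma call by either adjustment (2 had an unadjusted p under 0.05), with fetal replicate 3 the highest array in sum at 3761 against 1523 and 1300 in the other 2 fetal arrays and 2327 to 3099 in adult basal cells, and Fabp4 the brightest.

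Schwann cell genes gave 1 call of 6 (16.7%, against 11.2% of all genes), Erbb3 (3.01 ± 0.15), a receptor that epithelia also express, with Sox10 the brightest and sums of 17786 to 20980 in fetal and 15594 to 19282 in adult basal cells. Skeletal muscle genes gave 1 call of 4 (25.0%, against the same 11.2%), Acta1 (-4.68 ± 0.12), which was also the brightest, and sums of 1149 to 1369 in fetal and 21082 to 23481 in adult basal cells. Acta1 alone made 63.2% to 68.3% of the fetal muscle sums. The other tested genes of the list, Myod1 (-0.07), Myog (-0.17) and Tnnt3 (0.03), overlapped between the populations.

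**Figure D5:**
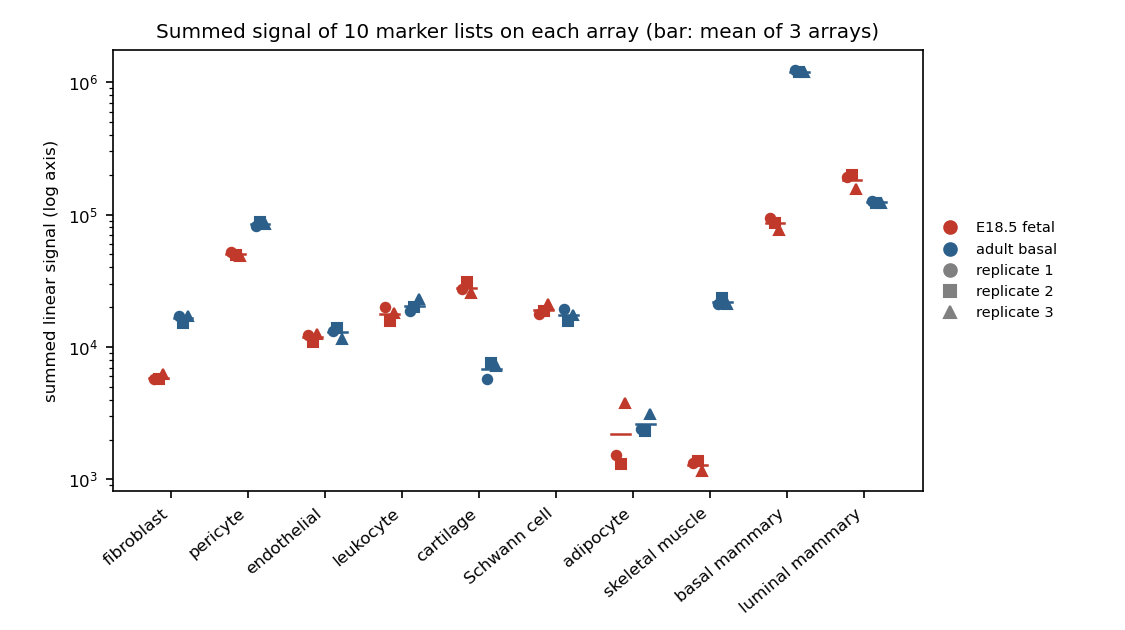
Summed linear signal (y axis, log scale) of 10 lists of cell type markers on each array, fetal in red and adult basal in blue, with a bar at the mean of 3 arrays. Cartilage and luminal sums are higher on every fetal array, fibroblast, pericyte, skeletal muscle and basal mammary sums are higher on every adult basal array, and the others overlap. A single probe can make most of a sum, as Acta1 does for fetal skeletal muscle and Mcam for fetal pericyte sums.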

How the data were processed

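Samples of E18.5 fetal (3) and adult basal (3) RNA were hybridized to Agilent SurePrint G3 Mouse GE arrays, 1 per sample. For the labelling, the labels name a low-input Quick Amp protocol and the methods its whole-transcript exon version. The authors deposited the processed signal intensity of Agilent Feature Extraction 11.0.1.1, background-subtracted and not normalized between arrays, with spot and local background intensities, and a table of quantile normalized log2 values, which was used as an alternative. Each column of the deposited log2 table followed its own array best (r between 0.971 and 0.996), and all columns had a median of 7.10.

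Control and outlier spots (104 to 326 an array) were left out, spots of a probe were averaged, and log2 processed signals were quantile normalized. Probes were named by matching accessions to RefSeq (GRCm38.p6; array designs name another assembly, so gene coordinates were not used). Probes in the lowest of 3 k-means clusters (100 starts, seed 1; limit 5.95) in both populations were removed. Differences were fitted with limma 3.58.1 in R 4.3.3. No spot was saturated, and each array had 76.4% to 83.3% of its probes well above background; the number of arrays limits the precision. Slides held both populations: slide 1 adult basal replicates 1 and 3 and fetal replicate 1, slide 2 the other 3 arrays.

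For each gene the probe with the highest mean among those that passed was used. Collagen genes that were called are given on every array, the others by class, and pathway genes where called (at most 4 each way) or set by name. The members and lists were chosen with earlier results of these data known. On simulated data with 20440 probes, Holm calls recovered 34 of 100 probes changed by 1.5 log2 units and 80 of 100 changed by 3, with 0 of 20240 unchanged probes called (Benjamini-Hochberg 86, 97 and 4). Protein features were not computed. Windows and plots used Python 3.11.15, pandas 2.3.3, numpy 2.4.6 and matplotlib 3.10.9. The alternatives were 75th percentile scaling, the deposited values, normexp correction (offset 50), no filter, a filter on signal above background, all probes, Benjamini-Hochberg adjustment, trend and robust estimation, an offset of 16, each array left out, replicate or slide as a block, and probes averaged by gene.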

Additional observations from a re-analysis of the deposited data

How the results depend on the processing

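No collagen difference past the threshold changed sign under any alternative run. Of the 10 called probes, Col17a1, Col9a1 and Col9a3 stayed called throughout and 7 lost the call at least once; of the 25 main probes not called, 9 were called under some alternative. Benjamini-Hochberg adjustment called 22 collagen probes (11 higher in fetal, 11 higher in adult basal cells) and 17 genes, with 2 basement membrane and 5 FACIT genes and 41 pathway genes, against 10, 7, 3, 8, 1, 2 and 18 with Holm adjustment. Trend and robust estimation called 16 probes, 7 of them higher in adult basal cells, and 13 genes, with 2 basement membrane, 5 FACIT and 29 pathway genes. Of all probes tested, 30% were called with Benjamini-Hochberg adjustment, 16.4% with trend and robust estimation and 11.1% in the main fit. Called basement membrane genes numbered 2 with 75th percentile scaling, normexp correction, an offset of 16 or probes averaged by gene, and 0 with no filter, with all probes, and with replicate or slide as a block. Normexp correction called 1 network gene, no filter 5 collagen genes in all (27235 probes are then adjusted over), and averaging by gene 2 transmembrane genes.

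With each array left out in turn, called collagen probes ranged from 4 to 10 (2 to 7 higher in fetal, 1 to 3 higher in adult basal cells), collagen genes from 4 to 8, fibrillar genes from 0 to 3, basement membrane genes from 0 to 1 and pathway genes from 8 to 17. The lowest totals came without fetal replicate 1, where 948 of all probes were called against 2270 with 6 arrays, and 6 collagen probes were called without fetal replicate 2 or 3. Replicate numbers did not pair the samples: deviations of same-numbered arrays correlated at -0.03, 0.09 and 0.05, and 1 of 3 fetal arrays correlated best with its own number. The replicate block called 9 collagen probes, with Col4a2 and Col8a2 lost and Col5a3 gained, and 1302 of all probes. The slide block called 10 collagen probes, with Col4a2 lost and a second Col25a1 probe gained, and 1541 of all. Within slides, the ratios of summed cell type markers kept their direction except for Schwann cell genes (-0.04 and 0.34). For adipocyte genes, the fetal sums of slide 2 (1300 and 3761) lay on both sides of its adult basal sum (2327). The adipocyte direction on that slide thus rests on how the sums are averaged. Where a call changed the cause was not tested, except that fewer arrays or more probes entered the adjustment by construction.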
